A study of Mus musculus with 16 samples.

Results

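FGFR4 knockdown was compared with saline in the livers of mice kept on chow, using the 4 libraries labelled Chow/FGFR4 KD and the 4 labelled Chow. These are 8 of the 16 liver libraries of a study that also fed mice a high-fat diet (HFD). The labels put each library in its group. All 8 mice were male C57BL/6J, were 6 weeks old when the diet period began, and ate chow for 12 weeks. The Chow/FGFR4 KD mice received 3 mg/kg of an siRNA against *Fgfr4* under the skin every 2 weeks, and the Chow mice received 0.9% saline on the same schedule. The siRNA carried N-acetylgalactosamine (GalNAc). No group received a control siRNA, so an effect of siRNA delivery and an effect of lower FGFR4 cannot be told apart here. Replicates are named by their group and number, and values of several libraries are given in the order of replicates 1 to 4. The HFD and HFD/FGFR4 KD groups were compared with the chow groups once. They also entered the filter, the scaling and the shared estimate of spread behind the chow tests. The mice of these 2 HFD groups were of the same strain, sex and age at the start, with the same injections, fed the high-fat diet for 12 weeks. The labels do not say which mice shared a cage or a day.

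FGFR4 is the main FGF receptor of hepatocytes. With its co-receptor beta-Klotho it receives FGF15 from the ileum after a meal, and the signal lowers transcription of *Cyp7a1*, the gene of the rate-limiting enzyme of bile acid synthesis. The asialoglycoprotein receptor of hepatocytes takes up GalNAc conjugates, and this is why such an siRNA acts mostly in the liver. The liver also has an acute-phase programme, in which interleukin 6 and interleukin 1 act through STAT3, NF-kB and C/EBP factors to raise secreted proteins such as serum amyloid A.

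Estimated counts per library totalled 3510397 to 5403109 in these 8 libraries, and the predicted gene Gm42418 took 13.4% to 22.7% of them. Levels are given in CPM, which are counts divided by the TMM-scaled library size. Tests were made with limma-voom on 11324 genes. Calls needed p under 0.05 and also an adjusted p (Benjamini-Hochberg) under 0.25. The marker genes of hepatocytes, which include albumin, summed to 70682 to 81933 CPM in each library, as liver RNA should. Markers of neutrophils summed to 6.5 CPM or less and those of T and NK cells to 5.21 CPM or less, and 0 of these 18 genes passed the filter on low values.

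*Fgfr4* was the gene that changed. It lies on chromosome 13 from 55152640 to 55168759 (GRCm38, plus strand, protein-coding). Its level was 27.9, 25.8, 36.3 and 28.9 CPM in Chow and 5.95, 6.17, 4.24 and 2.76 CPM in Chow/FGFR4 KD. Every KD library lay below every saline library, and the lowest saline value was 4.18 times the highest KD value. The level fell by 2.62 on the log2 scale (95% interval -3.17 to -2.06, limma-voom adjusted p 0.000223), which is 6.13-fold (4.18 to 9.01) and leaves a mean of 16.1%. An exact permutation test of the 8 values, two-sided, gave p 0.0286, the smallest that 4 against 4 can give. The counts behind these values were 99 to 179 in saline libraries and 10 to 30 in KD libraries, so counting error alone is large for the KD values. In bulk RNA, fewer cells of a type and less RNA per cell cannot be told apart. None of the 31-base words of *Fgfr4* transcripts occurs in transcripts of another gene.

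The other FGF receptors were not called. *Fgfr1* was at 6.38, 6.05, 5.27 and 5.04 CPM in Chow and 4.56, 5.94, 2.42 and 6.89 CPM in Chow/FGFR4 KD (log2 change -0.25, 95% interval -0.95 to 0.45). For *Fgfr2* the log2 change was 0.34 (-0.13 to 0.80) and for *Fgfr3* it was 0.22 (-0.38 to 0.82). Without Chow/FGFR4 KD 4 these were 0.11 and 0.50 (unadjusted limma-voom p 0.0482 and adjusted p 1 for *Fgfr3*), and the other 3 KD libraries, at 21.5 to 28.8 CPM of *Fgfr3*, lay above the saline range of 15.9 to 21.3 CPM. *Klb*, which encodes beta-Klotho, had 19.7, 27.9, 20.7 and 21.8 CPM in Chow and 23.2, 17.8, 18.8 and 15.2 CPM with KD (-0.24, -0.57 to 0.10). The groups overlapped for all 4 genes. The genes of the delivery route were also close to their saline levels, with a log2 change of -0.07 for *Asgr1* and -0.16 for *Asgr2*, the subunits of the asialoglycoprotein receptor, and 0.01 for *Ago2*, the slicing enzyme of RNA interference.

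**Figure D1:**
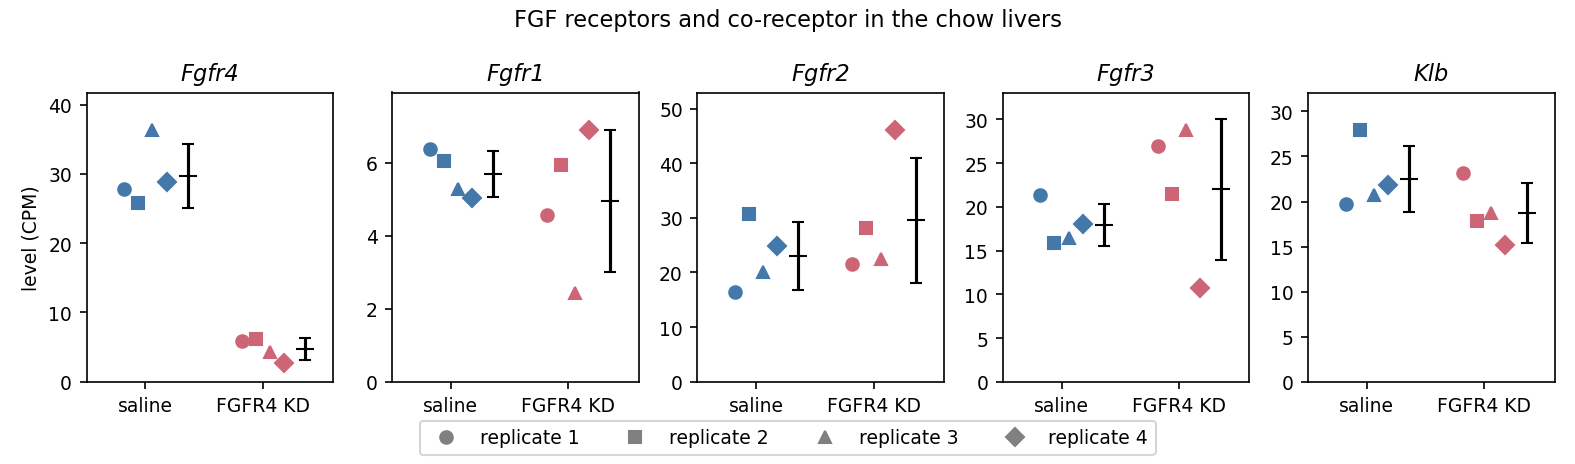
Level in CPM (vertical axis, from 0) of Fgfr4, Fgfr1, Fgfr2, Fgfr3 and Klb in the 4 saline and 4 FGFR4 KD libraries on chow. Marker shapes give the replicate number, and the black bar with whiskers is the mean ± SD of 4 libraries. In the Fgfr4 panel every KD library (2.76 to 6.17) lies below every saline library (25.8 to 36.3), and in the other 4 panels the groups overlap.

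Beyond the target, no gene was called. *Fgfr4* was the single gene called of 11324 (0.00883%), and the next smallest adjusted p was 0.387. Without adjustment, 300 genes had a limma-voom p under 0.05 with a higher level (2.65%) and 219 with a lower level (1.93%), and 104 had a p under 0.01. Of the 519 genes, 57.8% were thus higher. With library totals as the only scaling 82.5% of 521 were higher, and the median of all genes moved by 0.049 on the log2 scale. The middle of the distribution was narrow, with the 5% and 95% quantiles of the log2 change at -0.41 and 0.45 and the median at 0.00. Only 79 genes had a log2 change over 1 and 59 one under -1.

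The 95% intervals give the size of change that this design could show. For 9276 genes (81.9%) the 95% interval of the log2 change lay within -1 and 1, so a 2-fold change of the mean fell outside it. The share was 43.5% of 2648 genes under 5 CPM, 91.2% of genes from 5 to 20 CPM and 96.3% of genes from 20 to 100 CPM. In the 116 most abundant genes it was 85.3%. At a limit of 0.5 on the log2 scale the share over all genes was 44.6%. A change smaller than that was often not detectable at this depth and number of mice. Larger changes could also miss the call, such as that of *Gadd45g* at 1.78 (limma-voom adjusted p 0.976).

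**Figure D2:**
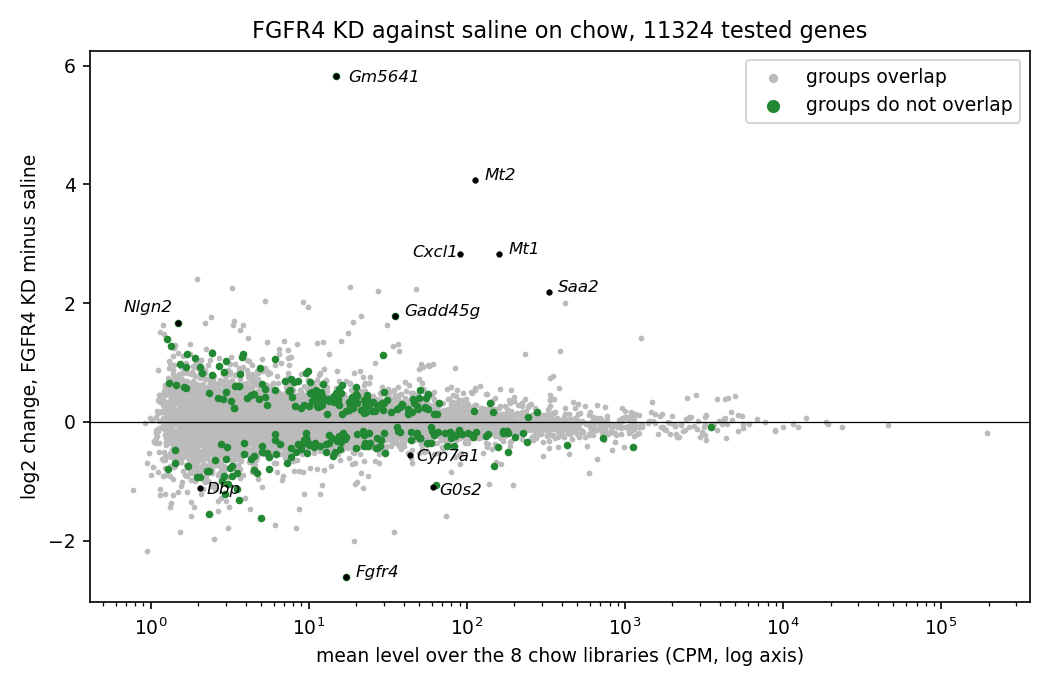
Log2 change of FGFR4 KD minus saline on chow (vertical axis) against the mean level in CPM over the 8 chow libraries (horizontal log axis) for 11324 genes. Green points are genes whose 4 KD libraries all lie on 1 side of all 4 saline libraries, black points are labelled genes, and Fgfr4 at -2.62 is the single called gene, while the pseudogene Gm5641 at 5.83 and Mt2 at 4.07 were not called.

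In 151 genes all 4 KD libraries lay above all 4 saline libraries (1.33% of those tested) and in 134 they lay below (1.18%). The genes described next are from the 10 with the smallest p in each direction among these, leaving out predicted genes and pseudogenes. Since they were chosen by their p and by the separation of the groups, their values are a description. Apart from *Fgfr4* none was called, with adjusted p-values from 0.387 to 0.976.

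Among those with a higher level, *Nlgn2* (chromosome 11, 69823122 to 69837784), which encodes the adhesion protein neuroligin 2, stood at 0.615, 0.783, 0.406 and 0.710 CPM in Chow and at 1.59, 1.83, 3.03 and 3.03 CPM in Chow/FGFR4 KD. Its log2 change was 1.67 (95% interval 0.98 to 2.37, adjusted p 0.387), at a level where a saline library holds only a few counts. All 4 saline libraries lay under 1 CPM, as many as the filter allowed, so *Nlgn2* passed only through the other groups, KD included. It was tested in 13 of the 26 alternative fits, and not in the fit without Chow/FGFR4 KD 4. *Gadd45g* (chromosome 13, 51846678 to 51848468), a stress-inducible growth arrest gene, had 29.7, 18.5, 7.10 and 11.4 CPM against 31.3, 83.2, 49.9 and 48.2 CPM (1.78, 0.90 to 2.66). The highest saline library and the lowest KD library of *Gadd45g* nearly touched. Smaller differences with little spread were seen for *Gimap9* (0.68), *Akirin2* (0.63), *Dcun1d5* (0.49), *Dvl3* (0.49), *Sat1* (0.51) and *Lrp10* (0.37). *Dvl3* encodes a relay of Wnt signals, *Akirin2* a nuclear cofactor, and *Sat1* the enzyme that acetylates polyamines for export. *Sema6b*, a semaphorin gene, completed this group with 2.44 ± 0.949 CPM in saline and 5.11 ± 0.874 CPM in KD livers (SD, n = 4 each; log2 change 1.09).

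Among those with a lower level, *Ndufa5* (chromosome 6, 24518666 to 24528013), a subunit of respiratory complex I, followed *Fgfr4*. It was at 32.6, 38.1, 35.7 and 36.7 CPM in Chow and 28.4, 29.7, 19.98 and 20.7 CPM in Chow/FGFR4 KD (-0.52, 95% interval -0.78 to -0.27). *Pdk2*, a kinase that restrains pyruvate dehydrogenase, went from 63.3 ± 4.45 to 49.2 ± 7.76 CPM (-0.36). *Adrb3*, the beta-3 adrenergic receptor, had 4.28, 3.39, 4.83 and 4.26 CPM against 2.35, 2.25, 2.12 and 1.26 CPM (-1.04, -1.68 to -0.40). Of the 31-base words of *Adrb3* transcripts 22% also occur in other genes, mostly in Gm45470, so its counts are less certain. The remaining genes were *Gpn2* (-0.79), *Sdccag8* (-0.86), *Nde1* (-0.50), *Morc2a* (-0.45), *Dym* (-0.41) and *Tbc1d9b* (-0.27). *Nde1* and *Sdccag8* act at centrosomes, and *Morc2a* in gene silencing.

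The highest log2 change in limma-voom belonged to a gene outside the naming rule, chosen here after its values were seen. Gm5641, a transcribed pseudogene, had a mean of 3.09 CPM in saline and 26.7 CPM in KD livers (5.83, adjusted p 0.387). Chow 4 was at 12.2 CPM and the other saline libraries at 0 to 0.190 CPM. Without Chow 4 its log2 change was 7.41 and the gene was called (limma-voom adjusted p 0.0167), and DESeq2 put it at 3.12 with all libraries. All of its 31-base words also occur in *Hnrnpa3*, so reads of the 2 genes cannot be told apart with certainty.

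Genes of the bile acid pathway were the first to ask about, since FGFR4 signalling restrains *Cyp7a1*. Of 18 genes of bile acid synthesis 17 were tested, 0 were called, and 16 of the 17 had a lower mean with KD, with a median log2 change of -0.15 beside 0.00 for all genes. *Cyp7a1* (chromosome 4, 6265612 to 6275633) had 66.4, 20.6, 64.1 and 57.3 CPM in Chow and 38.3, 32.01, 50.6 and 18.2 CPM in Chow/FGFR4 KD. Its log2 change was -0.56 with a 95% interval of -1.35 to 0.23, so a rise beyond 0.23 lay outside the interval. Chow 2 and Chow/FGFR4 KD 4 were the low libraries of their groups. *Cyp8b1*, which sets the share of cholic acid, had the smallest p of the list. It was at 384.4, 266.9, 397.6 and 384.9 CPM in Chow against 284.2, 241.6, 306.1 and 149.7 CPM (-0.58, -1.05 to -0.11, unadjusted limma-voom p 0.0191). Without Chow/FGFR4 KD 4 its log2 change was -0.36 (unadjusted p 0.0872). The genes of the alternative route were nearer to 0, with -0.12 for *Cyp27a1* and -0.20 for *Cyp7b1*. Summed over the 18 genes the level was 8471 to 9065 CPM in Chow and 7745 to 8037 CPM in Chow/FGFR4 KD, without overlap. The largest part of this sum was *Scp2*, at 3509 to 3662 CPM in Chow and 3308 to 3499 CPM with KD. Of the 17 tested genes *Scp2* was the only 1 whose groups did not overlap. Its log2 change was small (-0.09, 95% interval -0.25 to 0.07), and -0.04 with library totals as the only scaling. Of its 31-base words 33.4% also occur in Scp2-ps2, so its counts are less certain.

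The receptors and transporters around bile acids stayed close to saline levels. Of the 12 regulators of *Cyp7a1*, 6 were higher and 6 lower, with a median of 0.01. *Nr1h4*, the bile acid receptor FXR, had a log2 change of -0.25 (-0.51 to 0.00), and *Nr0b2*, the FXR target SHP, one of -0.27 (-1.05 to 0.52). *Nr0b2* was at 28.9, 20.9, 19.1 and 29.4 CPM in Chow and 24.8, 11.7, 37.8 and 15.7 CPM with KD, and the KD libraries reached beyond the saline range on both sides. The 14 transporters tested of 17 had a median of -0.13 and 0 calls. *Abcb11*, the bile salt export pump, was at 0.00, and *Slc10a1*, the uptake carrier NTCP, at -0.22.

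Whether the response to KD depended on the diet was tested as the difference between the log2 changes on HFD and on chow. It was called for 4 of 11324 genes (0.0353%), namely *Cyp7a1*, *Tm7sf2*, *Idi1* and Gm21897. For *Cyp7a1* the difference was 3.01 (95% interval 1.96 to 4.05, limma-voom adjusted p 0.0764), for *Tm7sf2* it was 0.91 (0.68 to 1.14, adjusted p 0.00254), and for *Idi1* it was 1.33 (0.81 to 1.85, adjusted p 0.139). With library totals as the only scaling limma-voom called 0 genes for this difference, with 761 at an unadjusted p under 0.05. The other tools were run with their usual scaling only, where edgeR called 4 and DESeq2 62. The *Fgfr4* difference was -0.16 (-0.95 to 0.64), so the depth of the knockdown was not distinguishable between the diets.

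**Figure D3:**
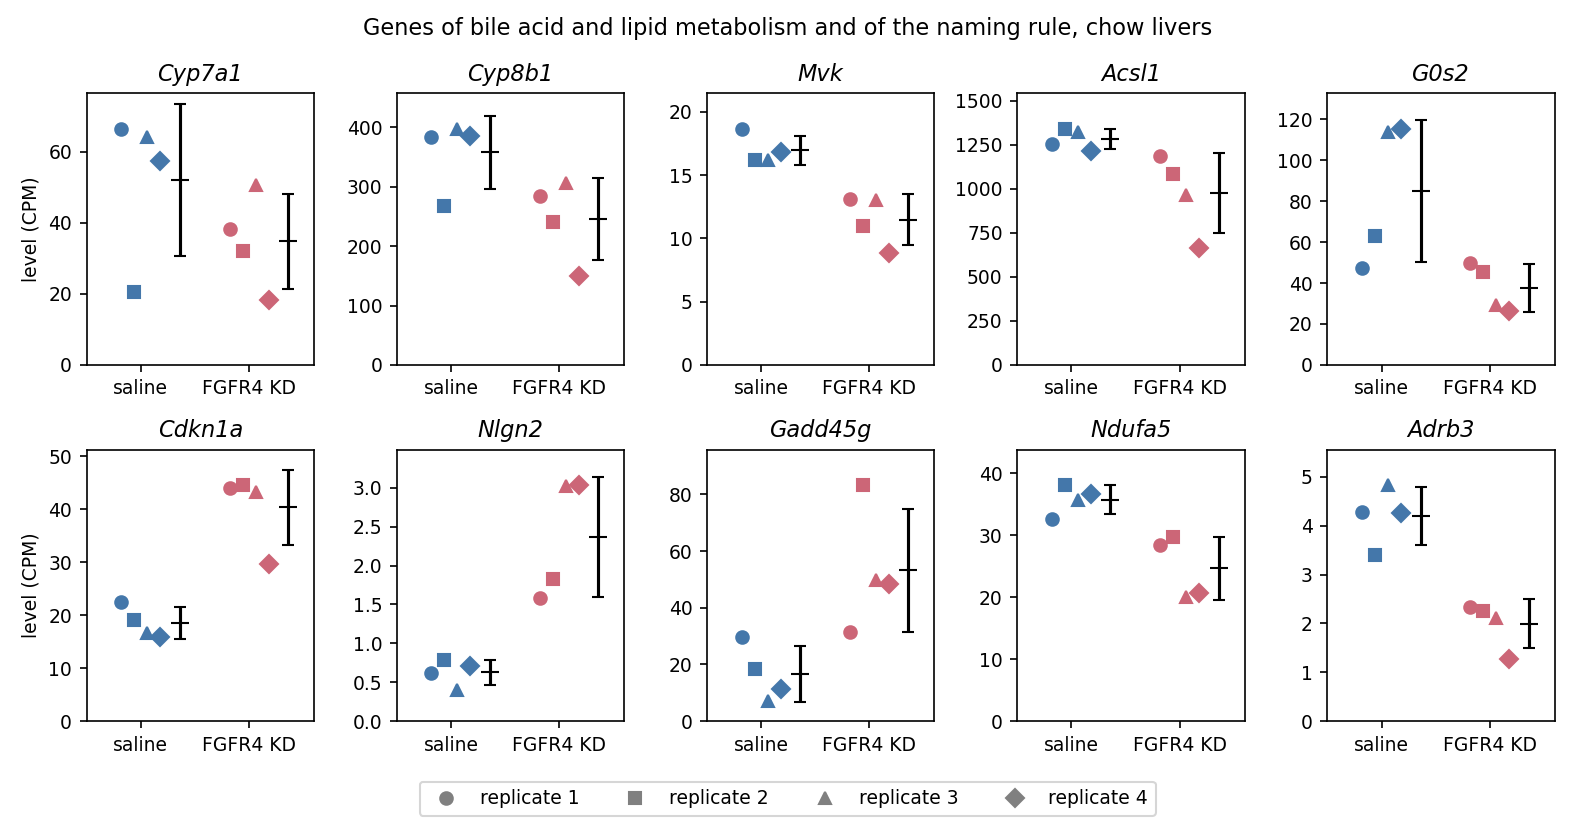
Level in CPM (vertical axis, from 0) of 10 genes in the 4 saline and 4 FGFR4 KD libraries on chow, with replicate numbers as marker shapes and mean ± SD as bars. In the Cyp7a1, Cyp8b1 and G0s2 panels the groups overlap, and in the Mvk, Acsl1, Cdkn1a, Nlgn2, Gadd45g, Ndufa5 and Adrb3 panels they do not, although none of these genes was called.

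Among lipid genes, most of those of cholesterol synthesis and fatty acid oxidation had a lower mean with KD, and those of the other lipid lists were divided. Of 20 genes of cholesterol synthesis, 18 had a lower mean and 0 were called (median -0.09), and without Chow/FGFR4 KD 4 16 were lower (median -0.10). *Mvk*, mevalonate kinase, had 18.7, 16.2, 16.2 and 16.8 CPM in Chow and 13.1, 10.97, 13.02 and 8.82 CPM with KD, without overlap (-0.57, 95% interval -0.95 to -0.19). In fatty acid oxidation 29 of 30 genes had a lower mean, with a median of -0.14, 0 calls and 3 lower at an unadjusted p under 0.05, beside 1.93% of all genes. *Acsl1*, which activates long-chain fatty acids, had 1254, 1341, 1323 and 1215 CPM against 1189, 1087, 967.9 and 666.4 CPM (-0.43, -0.77 to -0.08), and the lowest value was again that of Chow/FGFR4 KD 4. Without this library *Acsl1* was at -0.25, the median of the list was -0.07, with 24 of 30 lower, and 0 of the 30 had an unadjusted p under 0.05. The 16 tested genes of fatty acid binding and lipid droplets were divided into 8 higher and 8 lower (median -0.02). The most negative log2 change among them was that of *G0s2*, an inhibitor of the lipase ATGL, with 47.4, 63.1, 113.6 and 115.3 CPM in Chow and 49.97, 45.3, 29.1 and 26.2 CPM in Chow/FGFR4 KD (-1.09, -1.72 to -0.47, adjusted p 0.976). DESeq2 alone called *G0s2* (-1.17, adjusted p 0.229). Of 16 lipogenic genes 10 were higher, with 0.57 for *Fasn*, 0.10 for *Scd1* and 0.27 for *Srebf1*. The 95% intervals of 28 of the 30 oxidation genes and 19 of the 20 cholesterol genes lay within -1 and 1.

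Insulin, clock and hepatokine genes were not called either. *Irs2*, an insulin receptor substrate, was at 30.8, 51.1, 28.8 and 39.3 CPM in Chow and 48.0, 51.0, 43.3 and 61.8 CPM with KD (0.48, 95% interval 0.00 to 0.97). *Igfals*, which stabilises circulating IGF1, did not overlap, with 63.4 to 71.5 CPM against 46.0 to 59.0 CPM (-0.36, -0.83 to 0.11). Among hepatokines, the hormones secreted by the liver, 11 of 11 had a lower mean with a median of -0.16. *Fgf21* was at -1.44 (-2.94 to 0.07), but its level never passed 4.43 CPM. *Inhbe*, a subunit of activin E, had 25.5 to 34.5 CPM against 18.8 to 25.4 CPM, without overlap (-0.44). Of 9 tested clock genes with a light-phase peak 3 were higher and 6 lower, and of 6 with a peak from the dark phase to dawn 4 were higher and 2 lower, with 0 calls. The smallest unadjusted p of each list was that of *Nr1d1*, which encodes REV-ERB alpha (-0.54, -1.02 to -0.05), and of *Cry1* (0.56, 0.14 to 0.98). Other clock genes such as *Nr1d2* (-0.23), *Per1* (0.08) and *Arntl* (0.18) were nearer to 0. The log2 changes ran from -1.11 to 0.11 in the light-phase list, with *Dbp* at -1.11 (unadjusted limma-voom p 0.366). In the list with a later peak they ran from -0.19 to 0.59. Without Chow/FGFR4 KD 4, 8 of the 9 light-phase genes were lower, and their median was -0.27, against -0.23 with it.

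Below the receptor, 15 genes of the MAP kinase relay had a median of 0.01, and all 15 intervals lay within -1 and 1. Of 22 genes of ERK feedback and early response 16 were tested, 11 were higher and 0 were called (median 0.23). The feedback inhibitors *Dusp6* and *Spry4* were at -0.14 and -0.12. *Myc* reached 36.8 CPM in Chow/FGFR4 KD 2 and at most 5.55 CPM in the other 7 libraries, and *Phlda1* reached 185.9 CPM there and at most 58.8 CPM elsewhere. *Cdkn1a*, the cell cycle inhibitor p21, had 22.6, 19.04, 16.6 and 15.9 CPM in Chow and 44.0, 44.6, 43.3 and 29.8 CPM in Chow/FGFR4 KD. All KD libraries lay above all saline libraries (1.12, 95% interval 0.46 to 1.78, unadjusted limma-voom p 0.00229, adjusted p 0.976). In a fit of the 8 chow libraries alone *Cdkn1a* was called (limma-voom adjusted p 0.199). Proliferation genes were low, and 7 of the 14 cell cycle genes passed the filter (median 0.44, 5 higher, 0 called).

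**Figure D4:**
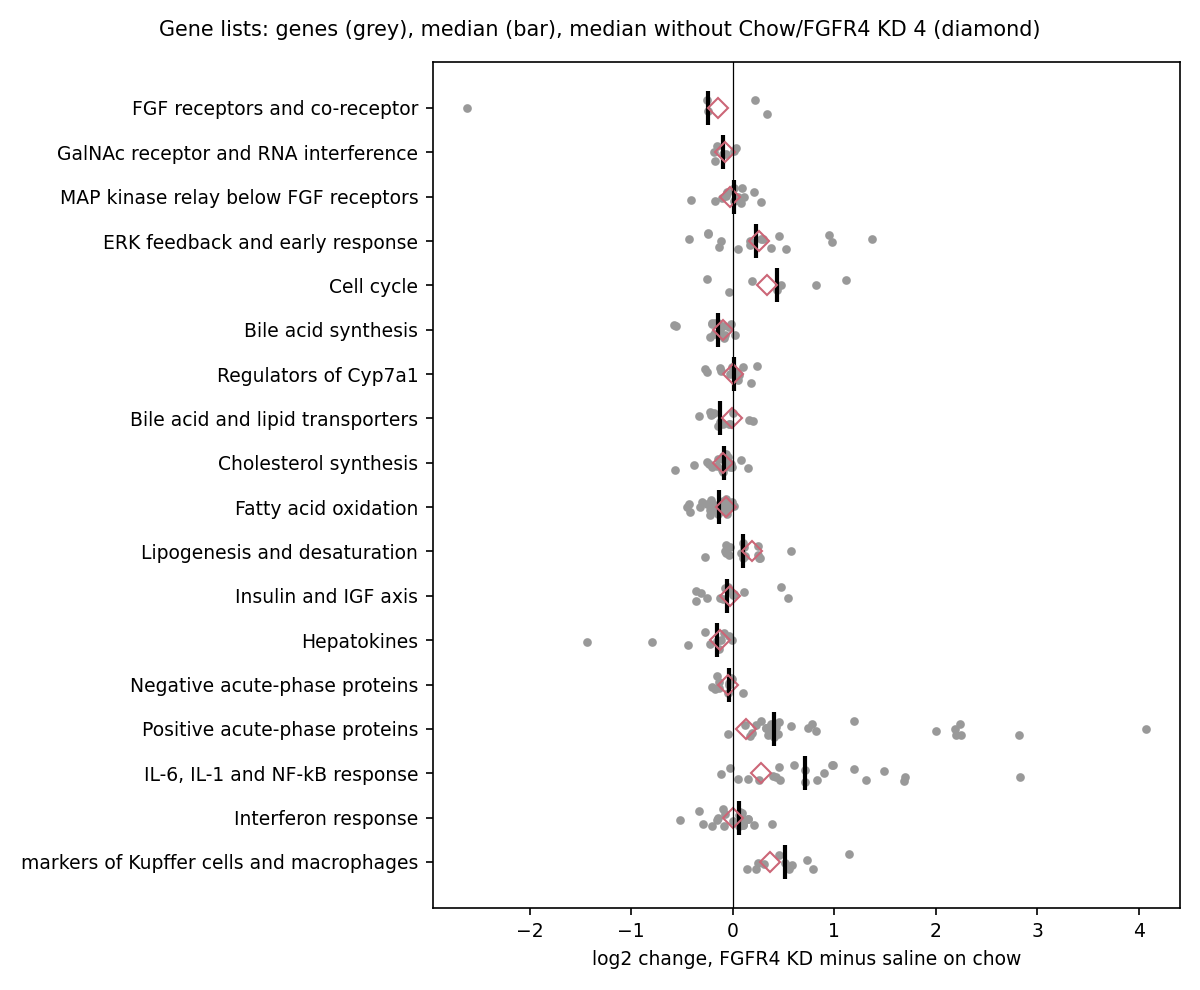
Log2 change of FGFR4 KD minus saline on chow (horizontal axis) for the tested genes of 18 lists (grey points, 1 per gene, shifted up or down at random within a row), with the median of each list as a black bar and the median without Chow/FGFR4 KD 4 as an open diamond. The bar of the acute-phase list moves from 0.41 to 0.13 and that of the IL-6, IL-1 and NF-kB list from 0.71 to 0.28 when this library is left out.

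The acute-phase and inflammatory lists had medians above 0, and these values rest largely on Chow/FGFR4 KD 4. Of 34 positive acute-phase genes 31 were tested, 30 had a higher mean with KD, and 0 were called (median 0.41). Without Chow/FGFR4 KD 4, 23 of 31 were higher and the median was 0.13. Of 22 tested genes of the IL-6, IL-1 and NF-kB response 20 were higher (median 0.71), and without this library 17 of 22 (0.28). The numbers at an unadjusted p under 0.05 went from 6 to 2 in the acute-phase list and from 8 to 4 in the IL-6, IL-1 and NF-kB list, where 2.65% of all genes had such a p with a higher level. The 12 negative acute-phase genes, which include albumin and transthyretin, had a median of -0.04, with *Alb* at -0.05 and *Ttr* at -0.14.

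Chow/FGFR4 KD 4 is therefore described on its own. Of 8676 genes with a mean of at least 5 CPM, 54 lay over 2-fold above the highest of the other 7 chow libraries, where each of the other libraries had 0 to 3 such genes. For 21 genes the ratio was over 3 and for 10 over 5. In the opposite direction 28 genes lay more than 2-fold below the lowest of the other 7, where other libraries had 2 to 21. These are comparisons of 1 library with 7, with no replicate and no test. Of the 20 genes with the highest ratios 9 were on the acute-phase list, which holds 31 of the 11324 tested genes. The list was drawn up with earlier results of these data known, so this count is a description. The 34 acute-phase genes summed to 66057 CPM in this library and to 21474 to 32867 CPM in the other 7.

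Serum amyloid A and lipocalin 2 genes led the order. *Saa3* (chromosome 7, 46711998 to 46715700, minus strand) was at 205.9 CPM and at most 3.31 CPM in the other 7 libraries, a ratio of 62.1. *Lcn2* (chromosome 2, 32384633 to 32388252, minus strand), which binds bacterial siderophores, was at 355.6 CPM and at most 9.08 CPM elsewhere (39.2). *Saa2* (chromosome 7, 46751790 to 46754313, plus strand) was at 2378 CPM against at most 118.5 (20.1), and *Saa1* (chromosome 7, 46740497 to 46742980, minus strand) at 2677 CPM against at most 306.0 (8.75). *Saa1* and *Saa2* share 46.0% and 44.4% of their 31-base words with each other, so the split of reads between them is uncertain. In Chow *Saa2* was at 50.6, 38.2, 3.13 and 15.4 CPM, and in Chow/FGFR4 KD it was at 18.6, 8.69, 118.5 and 2378 CPM. Chow/FGFR4 KD 3 was the next highest library for *Saa1*, *Saa2* and *Lcn2*.

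The promoters of these 4 genes are shown because C/EBP factors and STAT3 are known activators of the programme. The 250 bases before each RefSeq start (GRCm38.p6) are printed on the strand of the gene, with matches to the C/EBP-like letters TTNNGNAA or their reverse complement in capitals.
Saa1, chr7:46742981-46743230, minus strand: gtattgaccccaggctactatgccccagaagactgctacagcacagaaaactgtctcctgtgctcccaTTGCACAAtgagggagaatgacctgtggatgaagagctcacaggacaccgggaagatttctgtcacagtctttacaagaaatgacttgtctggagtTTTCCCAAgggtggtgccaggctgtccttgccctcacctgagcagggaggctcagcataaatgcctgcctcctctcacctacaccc
Saa2, chr7:46751583-46751832, plus strand: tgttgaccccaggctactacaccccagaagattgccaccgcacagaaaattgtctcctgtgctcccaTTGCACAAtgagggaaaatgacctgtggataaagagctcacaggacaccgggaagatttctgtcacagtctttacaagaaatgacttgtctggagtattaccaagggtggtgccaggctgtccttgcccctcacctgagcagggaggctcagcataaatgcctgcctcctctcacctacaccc
Saa3, chr7:46715677-46715926, minus strand: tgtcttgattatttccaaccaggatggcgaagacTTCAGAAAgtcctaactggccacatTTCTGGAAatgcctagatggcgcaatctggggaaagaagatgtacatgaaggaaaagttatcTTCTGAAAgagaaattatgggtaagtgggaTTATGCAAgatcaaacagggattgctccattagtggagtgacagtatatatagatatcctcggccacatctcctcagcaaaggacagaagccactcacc
Lcn2, chr2:32387740-32387989, minus strand: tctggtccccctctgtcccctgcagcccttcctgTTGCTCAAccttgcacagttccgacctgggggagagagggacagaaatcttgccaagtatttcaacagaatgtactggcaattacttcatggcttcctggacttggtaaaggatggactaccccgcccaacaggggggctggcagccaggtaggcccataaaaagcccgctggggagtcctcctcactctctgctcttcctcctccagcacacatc
*Saa3* held 4 matches, *Saa1* 2, and *Saa2* and *Lcn2* 1 each. The match TTGCACAA began 182 bases before the start of *Saa1* and 183 bases before that of *Saa2*. The letters are common, since 36.8% of 32851 mouse promoters of this length held at least 1 match on either strand. The STAT-like letters TTCNNNGAA (7.02% of promoters) matched 0 times in the 4 windows, which says only that these letters are not there.

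Other genes of the acute-phase list were high in the same library. *Orm2* was at 117.5 CPM against at most 7.73 elsewhere (15.2), *Apcs*, serum amyloid P, at 189.1 against 48.3 (3.92), and *Steap4*, a metal reductase, at 1585 against 396.8 (3.99). *Hp*, haptoglobin, was at 6478 CPM and at most 2460 in the other libraries, and *Fga*, the fibrinogen alpha chain, at 7977 and at most 5615. Left out of the fit, this library took the log2 change of *Orm1*, *Orm2*, *Hp*, *Apcs* and *Crp* from 0.33, 0.82, 0.41, 0.39 and 0.17 to -0.14, -0.26, -0.05, -0.23 and -0.10. That of *Saa1* went from 2.0 to 0.68, that of *Saa2* from 2.19 to 0.52, that of *Saa3* from 2.20 to 0.77 and that of *Lcn2* from 2.24 to 0.71.

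Several genes of the NF-kB system followed. *Tnfaip3*, the inhibitor A20, was at 41.6 CPM against at most 5.33 (7.81), *Tifa*, an adaptor, at 217.0 against 33.6 (6.45), and *Icam1*, an adhesion molecule, at 82.4 against 14.3 (5.76). The ratios of *Ripk2*, *Nfkb2* and *Bcl3* were 5.84, 3.55 and 3.45. The metal-binding genes *Mt2* (5.50) and *Mt1* (3.87), which are on the acute-phase list, and the haem oxygenase gene *Hmox1* (3.72) were also among the 20 highest. So were *Fbf1*, *Zc3h13*, *Tacc2* and *Derl3*, which are not known acute-phase genes. *Mt2* shares 58.1% of its words with other transcripts, mostly with Gm45774. The lowest genes of this library were AY036118, listed at 0 and at 14.1 to 51.8 CPM elsewhere, *Rgs16* at 1.38 CPM (9.15 to 50.6 elsewhere) and *Arrdc3* at 8.27 CPM (33.3 to 150.3). All words of AY036118 occur in another gene, and the part of read assignment in its 0 was not tested. The other 7 were *Cbx2*, *Slc43a2*, *Oit3*, *Rgl1*, *Atxn7l1*, *Lamb1* and *Fam13a*, at 1.103 to 4.41 CPM.

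**Figure D5:**
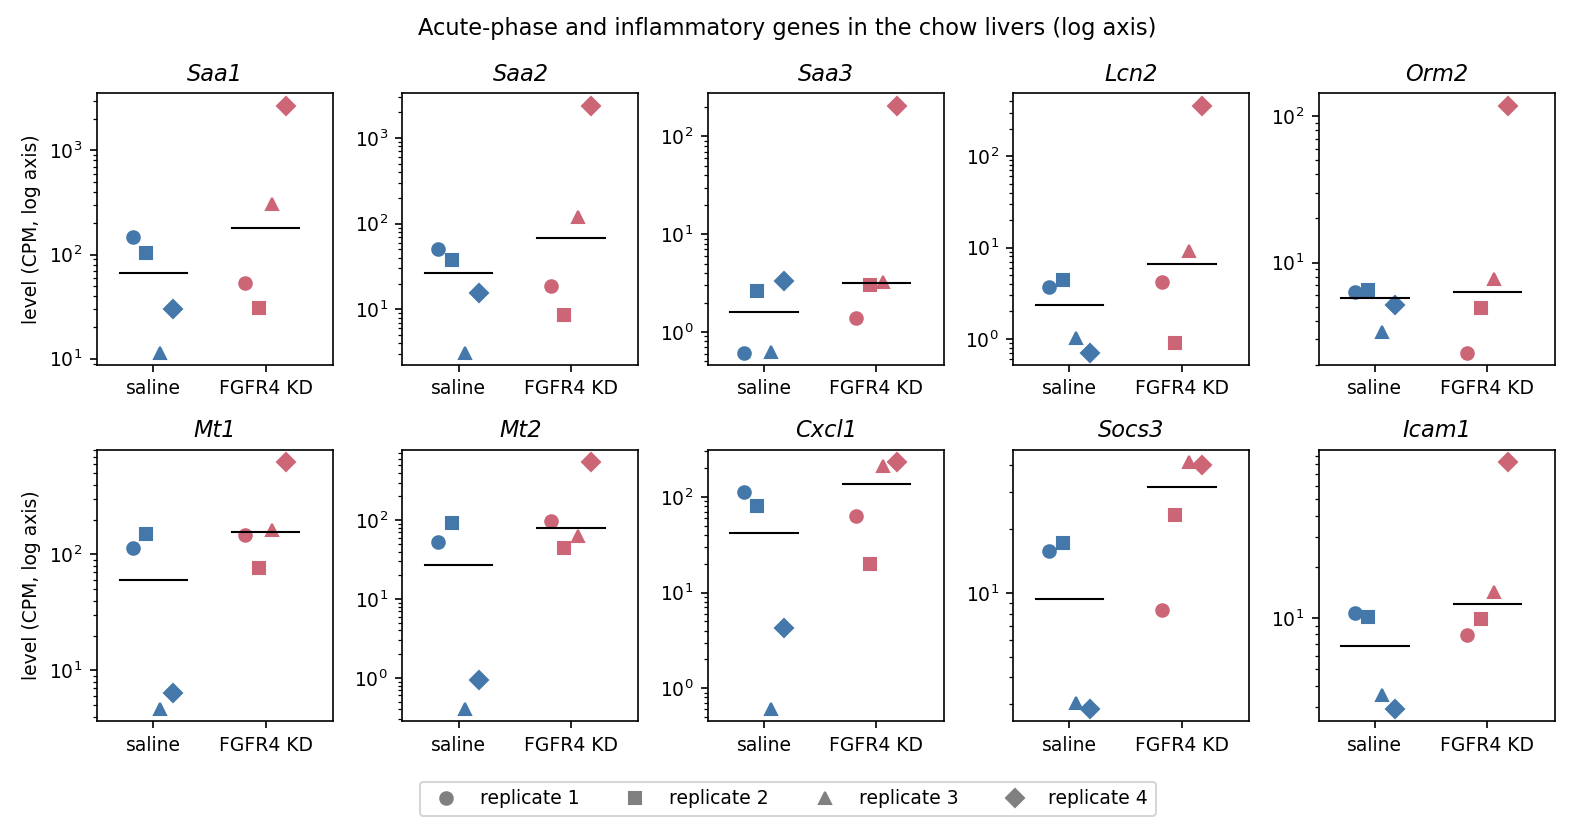
Level in CPM (vertical log axis) of 10 acute-phase and inflammatory genes in the 4 saline and 4 FGFR4 KD libraries on chow, with replicate numbers as marker shapes and group medians as black lines. Chow/FGFR4 KD 4 (red diamond) is the highest library in every panel but that of Socs3, where Chow/FGFR4 KD 3 is slightly higher. For Mt1, Mt2, Cxcl1, Socs3 and Icam1 the replicates Chow 3 and Chow 4 are the lowest.

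Some inflammatory genes kept a higher mean without this library, with log2 changes of 3.33 for *Mt2*, 2.35 for *Cxcl1* and 1.42 for *Socs3*, and in these the saline group itself was spread. *Mt2* had 52.5, 90.8, 0.406 and 0.947 CPM in Chow and 98.9, 44.8, 62.1 and 544.5 CPM in Chow/FGFR4 KD (4.07, 95% interval 1.39 to 6.75, adjusted p 0.976). *Cxcl1*, a neutrophil attractant, had 111.9, 80.1, 0.609 and 4.26 CPM against 62.9, 19.9, 212.8 and 231.6 CPM (2.83, 0.42 to 5.24). *Socs3*, a feedback inhibitor of STAT3, had 15.8, 17.2, 3.04 and 2.84 CPM against 8.33, 23.3, 41.5 and 40.0 CPM (1.69, 0.36 to 3.01). In these 3 genes Chow 3 and Chow 4 were the lowest of the 8 libraries, and Chow 1 and Chow 2 lay within the range of the KD libraries. *Cebpd*, a C/EBP factor, had 4.10, 3.65, 3.85 and 4.50 CPM in Chow and 7.73, 4.34, 9.38 and 15.7 CPM with KD (0.99, 0.35 to 1.63), and it was called only without Chow/FGFR4 KD 2 (1.32, limma-voom adjusted p 0.214). *Nfkb1* had 17.3 to 21.9 CPM in Chow and 22.1 to 38.3 CPM with KD, without overlap (0.46, 0.13 to 0.78, unadjusted limma-voom p 0.00884), and without Chow/FGFR4 KD 4 its log2 change was 0.29 (unadjusted limma-voom p 0.0327).

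All 11 markers of Kupffer cells and macrophages had a higher mean in the KD livers (median 0.51), 2 lay higher without overlap between the groups, beside 1.33% of all genes, and 0 were called. *Lyz2*, lysozyme, had 14.6, 10.7, 12.6 and 12.3 CPM in Chow and 16.6, 16.9, 19.7 and 21.8 CPM with KD (0.55, 95% interval 0.03 to 1.08), and 32.8% of its words also occur in *Lyz1*. *C1qa*, a complement chain made by macrophages, had 8.41 to 9.00 CPM against 10.9 to 17.4 CPM (0.51, 0.01 to 1.01). *Clec4f*, specific to Kupffer cells, had 17.6, 20.3, 21.1 and 22.96 CPM against 25.2, 27.4, 18.5 and 31.1 CPM (0.31, -0.20 to 0.83), with overlap. Summed over the list the markers gave 85.5 to 89.7 CPM in Chow and 102.6 to 140.3 CPM in Chow/FGFR4 KD. The highest sum was again that of Chow/FGFR4 KD 4. Without it, 10 of 11 were higher, with a median of 0.37. Their part in the inflammatory values was not tested.

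Markers of other cells gave no such order. Endothelial markers summed to 101.9 to 128.6 CPM in Chow and 72.3 to 118.2 CPM with KD, and those of stellate cells and fibroblasts to 98.2 to 142.8 CPM and 84.6 to 138.0 CPM. Only 2 of 7 markers of B and plasma cells passed the filter (median 0.86), and the list summed to 2.61 to 13.4 CPM in Chow and 3.58 to 12.1 CPM with KD. The 22 tested interferon response genes had a median of 0.06, and complement and coagulation genes one of -0.01 over 27 genes.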

How the data were processed

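Liver RNA of 16 mice was sequenced in 4 groups of 4, and the labels put each library in its group. The authors trimmed reads with fastp, pseudoaligned them with kallisto and deposited estimated counts per gene, which need not be whole. The submitters' notes name GRCm38, and the transcriptome release is not given in the sources used here. Genes with under 1 CPM in more than 4 of the 16 libraries were left out, and 11324 were kept. Counts were scaled with TMM (edgeR 4.0.16) and tested with limma-voom (limma 3.58.1, R 4.3.3) over all 16 libraries, so that groups share 1 estimate of spread. Gene symbols were found for 98.3% of identifiers in GENCODE M21. The libraries, gene lists and naming rule (list genes and the 10 smallest p per direction without overlap, at 1 CPM or more; for Chow/FGFR4 KD 4, the 20 highest and 10 lowest ratios to the other 7 libraries, at a mean of 5 CPM or more) were chosen with earlier results of these data known. Genes said to be chosen after their values were seen fall outside it, and some items that the rule names are not reported here. Mice were kept 4 to a cage, and which libraries shared one is not given, so p-values measure only the spread between these libraries. Other fits used the quasi-likelihood test of edgeR, DESeq2 1.42.0 on rounded counts, other filters and scalings, quality weights, the chow libraries alone, blocking on replicate number, an adjusted p under 0.05, and omission of each library in turn. Totals of 3445949 to 5976449 counts per library limit precision. Within-group pairs of chow libraries differed by more than counting noise (chi-square per degree of freedom 9.44 to 46.7). The pipeline was tested on simulated counts. Promoters came from RefSeq.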

Additional observations from a re-analysis of the deposited data

Results flagged for a closer look

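For 135 of the genes named here or on the lists behind the text, the 4 values of Chow and of Chow/FGFR4 KD were examined. A library was flagged if it stood apart by Dixon's ratio, the gap to the nearest other library over the range of the group. Genes outside these 135, such as *Ripk2*, *Hmox1*, *Fbf1* and *Rgs16*, were not examined. Of 270 groups 37 held such a library, 25 of them in Chow/FGFR4 KD 4. Chance gives about 1 in 20, or 13.5, but the genes are not independent, and they include acute-phase and NF-kB genes named with the high values of Chow/FGFR4 KD 4 known, so the excess over 13.5 is no evidence of its own.

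In 23 of these Chow/FGFR4 KD 4 was the high library. Its level in CPM, with the range of the other 3 libraries of its group, was *Saa1* 2677 (30.6 to 306), *Saa2* 2378 (8.69 to 118.5), *Saa3* 205.9 (1.40 to 3.26), *Lcn2* 355.6 (0.91 to 9.08), *Orm1* 1233 (312.5 to 371.6), *Orm2* 117.5 (2.43 to 7.73), *Hp* 6478 (1566 to 2169), *Hpx* 7239 (2020 to 2365), *Fga* 7977 (4636 to 5204), *Apcs* 189.1 (23.6 to 34.7), *Crp* 647.6 (291.1 to 327.9), *Lrg1* 913.9 (246.1 to 312.1), *Il1rn* 15.4 (1.21 to 2.52), *Steap4* 1585 (192.3 to 278.8), *Mt1* 626.7 (76.1 to 162), *Mt2* 544.5 (44.8 to 98.95), *Lbp* 310.7 (66.03 to 96.5), *Nfkb2* 38.6 (4.57 to 7.57), *Bcl3* 118 (30.1 to 34.2), *Icam1* 82.4 (7.93 to 14.3), *Tnfaip3* 41.6 (0.69 to 3.63), *Tifa* 217 (6.34 to 13.7) and *C1qa* 17.4 (10.9 to 11.7).

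In 2 it was the low library, with *Cdkn1a* at 29.8 CPM (43.3 to 44.6 in the other 3) and *Hsd3b7* at 260.4 CPM (339.5 to 352.3). Chow/FGFR4 KD 3 stood apart for *Egr1* at 91.1 CPM (31.1 to 33.9), *Akr1d1* at 135.9 (102.6 to 107.7), *Abcc2* at 519.8 (413.0 to 430.3) and *Acaa1a* at 153.9 (129.4 to 132.9). Chow/FGFR4 KD 2 stood apart for *Myc* at 36.8 CPM (1.51 to 5.55) and *Phlda1* at 185.9 (37.2 to 51.4). In Chow, replicate 2 stood apart for *Cyp8b1* at 266.9 CPM (384.4 to 397.6), *Srebf1* at 43.3 (85.0 to 91.0), *Cxcl10* at 0 (2.13 to 2.46), *Tifa* at 33.6 (4.26 to 6.36) and *Tbc1d9b* at 59.7 (53.7 to 54.7). Replicate 4 of Chow stood apart for Gm5641 at 12.2 CPM (0 to 0.190).

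The effect of KD differed between the diets by the test of the difference itself for 3 of the 135 genes examined. The difference, HFD minus chow, was 3.01 on the log2 scale for *Cyp7a1*, 1.33 for *Idi1* and 0.91 for *Tm7sf2*.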

How the results depend on the processing

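*Fgfr4* was called in all 26 alternative fits, at -2.76 to -2.40. The count of genes called with KD on chow was 2 with DESeq2 (*G0s2* added), 3 with library totals as the only scaling (*Nlgn2* and Gm5641) and 2 with the chow libraries alone (*Cdkn1a*), and 1 to 2 when single libraries were left out. *Nlgn2*, with all saline values under 1 CPM, was tested in only 13 of the 26 fits. *Cyp7a1* was called in none of the 26 fits (-0.94 without Chow 2 to -0.31 without Chow/FGFR4 KD 4). Genes at an unadjusted p under 0.05 numbered 1157 with no filter, where 24944 genes were tested, and 393 (without Chow/FGFR4 KD 4) to 740 (without Chow 2) when a library was left out. Genes called for the difference between diets numbered 62 with DESeq2, 7 with no filter, 0 with limma-voom on library totals (761 at an unadjusted p under 0.05), 4 with edgeR on TMM scaling, 7 with quality weights, 1 at an adjusted p under 0.05, and 2 to 27 without single libraries, with 27 without HFD/FGFR4 KD 2.

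With the replicate block 1 gene was called on chow (*Fgfr4*, -2.61), 577 had an unadjusted p under 0.05 and 2 were called for the difference between diets, against 4 without the block. Same-numbered Chow and Chow/FGFR4 KD libraries had correlations of deviations of -0.08, 0.03, 0.06 and -0.16, so the numbers did not pair them, and not every library correlated best with its own number.

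When single libraries were left out, the direction of 8 single genes turned by more than the standard error of their value. Without Chow/FGFR4 KD 4 this was so, with the range over the left-out libraries in parentheses, for *Abcg8* (-0.36 to 0.10), *Orm1* (-0.14 to 0.52), *Orm2* (-0.26 to 1.62), *Hp* (-0.05 to 0.63), *Apcs* (-0.23 to 0.70), *Crp* (-0.10 to 0.29) and *Tnfaip3* (-0.17 to 1.64). Without Chow 3 it was so for *Egr1* (-0.42 to 0.82). The count of genes over 3-fold above the other 7 libraries in Chow/FGFR4 KD 4 was 32 without Chow 2, against 21. The median of the MAP kinase relay list, 0.01, was 0.07 with library totals and 0.08 without Chow/FGFR4 KD 2. The cause was not tested. In 4336 other comparisons list medians moved by less than their spread and genes kept their side of the threshold, and a gene's sign turned, if at all, within its standard error, as it did 60 times (*Abcb11*, *Cd36* and *Ago2* most often). Another 7 gained a call. Low counts limit *Fgfr4* in KD livers (10 to 30 counts) and genes under 5 CPM.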

Other observations

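*Steap4* had 278.8, 396.8, 79.5 and 85.0 CPM in Chow replicates 1 to 4, and *Mt1* had 113.2, 149.5, 4.67 and 6.39 CPM, so replicates 3 and 4 of Chow lay below the remaining 6 chow libraries in both genes. *Junb*, an early response gene, had 73.4, 46.4, 12.6 and 16.8 CPM in Chow and 44.8, 30.4, 106.6 and 81.9 CPM in Chow/FGFR4 KD. *G0s2* had the opposite order in Chow, with replicates 3 and 4 at 113.6 and 115.3 CPM and the remaining 2 at 47.4 and 63.1 CPM.

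Genes of lipogenesis and desaturation summed to 17439 CPM in Chow/FGFR4 KD 1 and to 5151 to 9454 CPM in the other 7 chow libraries. Most of the first sum was *Scd1* alone, at 13144 CPM in Chow/FGFR4 KD 1 and 2584 to 6631 CPM in the other 7. Erythroid marker genes summed to 799.7 CPM in Chow/FGFR4 KD 1 and to 247.3 to 524.5 CPM in the other 7.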
